A study of Mus musculus with 18 samples.

Results

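Macrophages of the colon wall were followed in whole-tissue RNA through 10 of their marker genes, *Csf1r*, *Adgre1*, *Cx3cr1*, *C1qa*, *C1qb*, *C1qc*, *Cd68*, *Lyz2*, *Mrc1* and *Cd163*. The genes were taken by name, as known macrophage markers, from the 47729 genes of the deposited read count table. All 10 were found, and all 10 passed the filter on low counts that left 16937 genes for testing. RNA was sequenced from mouse colon in 6 groups of 3 libraries: WT and *Cldn2*KO mice, each as untreated controls, after recovery from dextran sodium sulfate (DSS) colitis, and after azoxymethane and DSS (AOM/DSS). The labels give the tissue as colon, and the study's text names distal colon as the source of the recovery RNA. *Cldn2* encodes claudin-2, a channel-forming tight junction protein of the epithelium, and DSS injures that epithelium. AOM is a carcinogen, and together with DSS it gives colitis-associated tumors. All mice were on a C57BL/6 background, the *Cldn2*KO mice were bred with WT mice so that WT littermates served as controls, and age and sex were matched, although no ages are stated in the sources used here. The label protocol gives AOM as 1 dose of 10 mg/kg with 3 cycles of 2.5% DSS and repeats this text for every sample, while the DSS dose and the length of the recovery period are not stated there. The study's captions give n = 3 per group for its RNA sequencing of mice. The sources do not say outright that each library came from a separate mouse, so p-values measure the spread between these samples, which may be in part technical.

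Resident macrophages of the adult gut are largely replaced by blood monocytes that enter the tissue through the chemokine receptor CCR2 and then mature, gaining F4/80, CX3CR1, CD163 and the complement component C1q. Their survival depends on signaling through the CSF1 receptor. Mature gut macrophages take up apoptotic cells and bacteria with little inflammatory response, and separate populations lie beneath the epithelium, in the submucosa and in the muscle layers beside enteric neurons.

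Levels are given as CPM, the standard count unit that scales the reads of a gene to the total of its library after TMM scaling, a correction for composition. Library depth was 17643058 to 27390344 counted reads. *Cldn2* itself was at 44.5 to 504 CPM over the 9 WT libraries and at 0.0555 to 0.557 CPM over the 9 *Cldn2*KO libraries. The colon label was set against the posterior colon gene *Hoxb13*, which was at 198 to 570 CPM in 11 libraries but below 0.51 CPM in 7, namely WT control replicate 2 and all 6 recovery libraries. Expression of *Hoxb13* and recovery therefore cannot be told apart in *Cldn2*KO mice, where every control expressed the gene, and only 1 WT control lacked it. The summed level of 4 posterior Hox genes, *Hoxb13* among them, was at most 1.83 CPM in those 7 libraries and 470 to 851 CPM in the other 11. Whether the libraries came from different regions of the colon was not tested. *Xist*, the long noncoding RNA of the inactive X chromosome, exceeded 10 CPM in 6 libraries, which were replicates 2 and 3 of WT recovery, of *Cldn2*KO recovery and of *Cldn2*KO AOM/DSS, although sexes were described as matched. Expression of *Xist* is therefore partly confounded with recovery in both genotypes and with genotype in AOM/DSS. *Cldn2*KO control replicate 3 stood apart from its group for several of the macrophage genes, as described below. In whole tissue, fewer macrophages and less RNA per macrophage cannot be told apart.

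Per kilobase of transcript, *Lyz2* was the most abundant of the 10 genes by mean in each of the 6 groups (its range overlapped that of *C1qa* in *Cldn2*KO recovery), at 117 ± 30.5 CPM per kb in WT controls (mean ± SD, n = 3). The C1q genes followed, with *C1qa* at 24.1 ± 0.312, *C1qb* at 16.6 ± 4.16 and *C1qc* at 11.4 ± 2.14 CPM per kb. The order *C1qa*, *C1qb*, *C1qc* of the means was the same in the 6 groups, although *C1qb* and *C1qc* overlapped in every group but *Cldn2*KO recovery. *C1qa* and *C1qb* overlapped in *Cldn2*KO controls and in AOM/DSS of both genotypes. *Cd68*, *Csf1r*, *Mrc1* and *Adgre1* lay between 2.70 and 1.58 CPM per kb in WT controls, and neighbors in that order overlapped between libraries. *Cx3cr1* (0.811 ± 0.263) and *Cd163* (0.243 ± 0.118 CPM per kb) were the lowest. *Lyz2* alone held 37.7% to 71.0% of the summed CPM of the 10 genes, so the sum mostly follows that gene.

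Promoter sequences are shown for *C1qb*, which varied closely with the other members, for *Cd68*, whose change was among the smallest, and for *Cd163*, which departed from the rest. They were taken from the RefSeq promoter table on GRCm38.p6, which held 7 of the 10 members (*Adgre1*, *C1qa* and *Csf1r* were not in it), and each is the 250 bases before the start, 5′ to 3′ on the gene's own strand. Capitals mark the letters GAGGAA or their reverse complement TTCCTC, a core recognized by PU.1, the transcription factor encoded by *Spi1* that directs macrophage development. The intervals are chr4:136886201-136886450 on the minus strand for *C1qb*, chr11:69666171-69666420 on the minus strand for *Cd68* and chr6:124304401-124304650 on the plus strand for *Cd163*.
C1qb: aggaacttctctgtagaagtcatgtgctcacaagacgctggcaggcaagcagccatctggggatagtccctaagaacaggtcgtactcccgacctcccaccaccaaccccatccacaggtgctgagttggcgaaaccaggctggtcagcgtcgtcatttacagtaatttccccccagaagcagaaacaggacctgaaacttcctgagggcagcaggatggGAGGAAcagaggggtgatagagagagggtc
Cd68: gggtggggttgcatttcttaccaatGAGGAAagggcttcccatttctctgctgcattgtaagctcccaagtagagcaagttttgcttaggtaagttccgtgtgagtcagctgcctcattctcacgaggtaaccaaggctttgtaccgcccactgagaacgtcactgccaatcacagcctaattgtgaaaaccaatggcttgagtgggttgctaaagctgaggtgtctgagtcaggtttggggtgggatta
Cd163: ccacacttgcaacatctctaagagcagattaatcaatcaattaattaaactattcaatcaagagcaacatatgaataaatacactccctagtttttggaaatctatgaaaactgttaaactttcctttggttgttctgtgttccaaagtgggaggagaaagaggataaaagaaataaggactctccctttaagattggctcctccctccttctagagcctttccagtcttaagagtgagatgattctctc
Of the 7 promoters, 4 held the letters on either strand (*C1qb*, *C1qc*, *Cd68* and *Mrc1*, the last with 3 matches), and the *Cd163*, *Cx3cr1* and *Lyz2* promoters did not. Over all 32817 promoters of the table, 23.3% held them in a window of the same length. A match is a description of the letters and not evidence of a binding site.

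During recovery from DSS colitis the macrophage genes were low in both genotypes. Compared with controls of the same genotype, 8 of 10 fell in WT mice and 8 of 10 fell in *Cldn2*KO mice, none rose, and all 20 estimates were negative (edgeR quasi-likelihood test over 18 libraries, Benjamini-Hochberg adjusted p under 0.05 over 16937 genes). Of all genes tested, 22.2% changed in WT mice and 12.2% fell, against 19.4% and 10.0% in *Cldn2*KO mice. The median log2 fold change of the 10 genes was −1.99 in WT and −2.21 in *Cldn2*KO mice, against −0.04 and 0.0037 over all genes. In WT mice all members but *Cd163* were lower in each of the 3 recovery libraries than in any control, a separation seen in 20.9% of all genes, and in *Cldn2*KO mice this held for all but *C1qa* (20.5% of all genes).

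**Figure D1:**
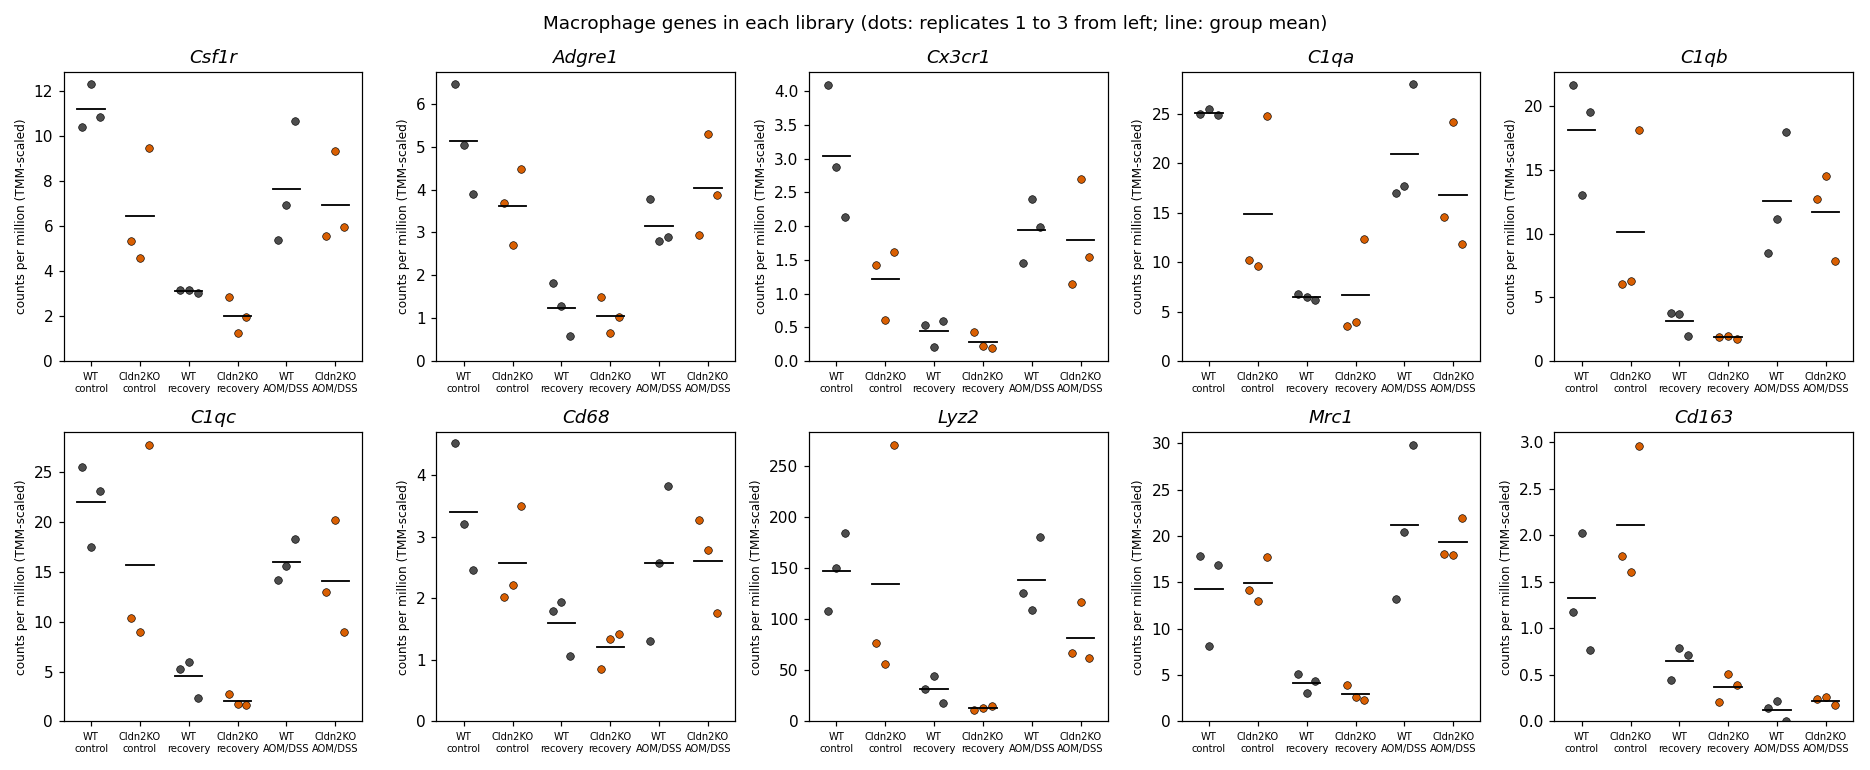
Level in CPM (TMM-scaled, linear axes from 0) of the 10 macrophage genes in each of the 18 libraries, with dots for replicates 1 to 3 and a line for the mean of each group. The means of both recovery groups lie below the other 4 group means for every gene but *Cd163*, which is lowest in AOM/DSS, and *Cldn2*KO control replicate 3 lies far above its group for *Lyz2* and the C1q genes.

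*Csf1r* encodes the receptor for CSF1 and IL-34 that macrophages need to survive. It was at 10.4, 12.3 and 10.9 CPM in WT controls and at 5.32, 4.61 and 9.47 CPM in *Cldn2*KO controls. In recovery it was at 3.17, 3.16 and 3.02 CPM in WT and at 2.84, 1.25 and 1.97 CPM in *Cldn2*KO libraries. Recovery and control libraries did not overlap in either genotype, and the 3 WT recovery values were nearly equal. The log2 fold change was −1.84 ± 0.35 (SE, n = 3 per group, edgeR adjusted p = 0.00289) in WT and −1.68 ± 0.36 (adjusted p = 0.00454) in *Cldn2*KO mice, that is, 0.279 and 0.312 of the control level. *Hmgxb3*, on the opposite strand, overlaps 873 bases or 15.1% of the *Csf1r* exons in GENCODE M21, so the count of *Csf1r* is less certain where strand was not used. *Cx3cr1* shares 1.73% of its exon bases with *Gm33858* in the same way.

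*Adgre1* encodes the surface protein F4/80. Controls were at 6.45, 5.04 and 3.89 CPM in WT and at 3.70, 2.72 and 4.47 CPM in *Cldn2*KO mice. Recovery libraries were at 1.83, 1.29 and 0.591 CPM in WT and at 1.499, 0.650 and 1.03 CPM in *Cldn2*KO mice. Every recovery library lay below every control. *Adgre1* fell in both genotypes, with estimates on the log2 scale of −2.03 ± 0.41 in WT (edgeR adjusted p = 0.00368) and −1.77 ± 0.41 in *Cldn2*KO mice (adjusted p = 0.00738).

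*Cx3cr1*, the receptor for fractalkine, was among the steepest in WT mice. Its controls were at 4.09, 2.88 and 2.14 CPM in WT and at 1.43, 0.610 and 1.61 CPM in *Cldn2*KO mice. In recovery it was at 0.529, 0.215 and 0.591 CPM in WT and at 0.428, 0.232 and 0.197 CPM in *Cldn2*KO mice, resting on 3 to 13 reads per library. Recovery libraries were below all controls of their genotype, with log2 fold changes of −2.73 ± 0.49 (edgeR adjusted p = 0.00214) and −2.08 ± 0.52 (adjusted p = 0.011). The counts do not resolve differences among the 6 recovery libraries at this depth.

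The genes of the C1q complex encode the A, B and C chains of the first component of the classical complement pathway, which binds antibody complexes and dying cells, and in the gut they are made mainly by macrophages. They are neighbors on the minus strand of chromosome 4, at chr4:136895917-136898803 (*C1qa*), chr4:136889804-136893065 (*C1qc*) and chr4:136880129-136886187 (*C1qb*) in the GRCm38 coordinates of the count table. *C1qb* was at 21.7, 13.03 and 19.6 CPM in WT controls and at 6.06, 6.33 and 18.1 CPM in *Cldn2*KO controls. In recovery it was at 3.78, 3.73 and 2.01 CPM in WT and at 1.87, 1.95 and 1.77 CPM in *Cldn2*KO libraries. *C1qb* fell in both genotypes, by log2 fold changes of −2.51 ± 0.44 (edgeR adjusted p = 0.00177) in WT and −2.44 ± 0.44 (adjusted p = 0.0018) in *Cldn2*KO mice. Without *Cldn2*KO control replicate 3, whose 18.1 CPM was far above replicates 1 and 2, the *Cldn2*KO estimate was −1.72.

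*C1qc* was at 25.5, 17.4 and 23.0 CPM in WT controls and at 10.4, 8.93 and 27.7 CPM in *Cldn2*KO controls. Its recovery levels were 5.25, 5.95 and 2.31 CPM in WT and 2.78, 1.76 and 1.67 CPM in *Cldn2*KO libraries. *C1qc* fell in both, to 0.205 of the control level in WT (log2 −2.29 ± 0.44, edgeR adjusted p = 0.00305) and to 0.133 in *Cldn2*KO mice (log2 −2.92 ± 0.46, adjusted p = 0.000898). Without *Cldn2*KO control replicate 3 the latter was −2.21.

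*C1qa* did not follow its neighbors in 1 library. It was at 25.0, 25.5 and 24.8 CPM in WT controls and at 10.2, 9.60 and 24.8 CPM in *Cldn2*KO controls. In recovery it was at 6.84, 6.46 and 6.15 CPM in WT but at 3.59, 3.99 and 12.4 CPM in *Cldn2*KO libraries. *Cldn2*KO recovery replicate 3 held 251 reads of *C1qa* against 36 of *C1qb* and 34 of *C1qc*, a ratio of *C1qa* to *C1qb* of 6.97, while in the other 17 libraries this ratio was between 1.15 and 3.06. *C1qa* fell in WT mice (log2 −1.95 ± 0.46, edgeR adjusted p = 0.00815), and the *Cldn2*KO estimate was −1.16 ± 0.45 (adjusted p = 0.0822). Without that library the *Cldn2*KO estimate was −1.97 (adjusted p = 0.0061). It shrank to −0.57 (adjusted p = 0.449) once control replicate 3, the highest of its group, was left out. With all libraries DESeq2 and limma-voom also called it (adjusted p = 0.0437 and 0.0247), over a range of adjusted p from 0.0061 to 0.578 in 15 alternatives.

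**Figure D2:**
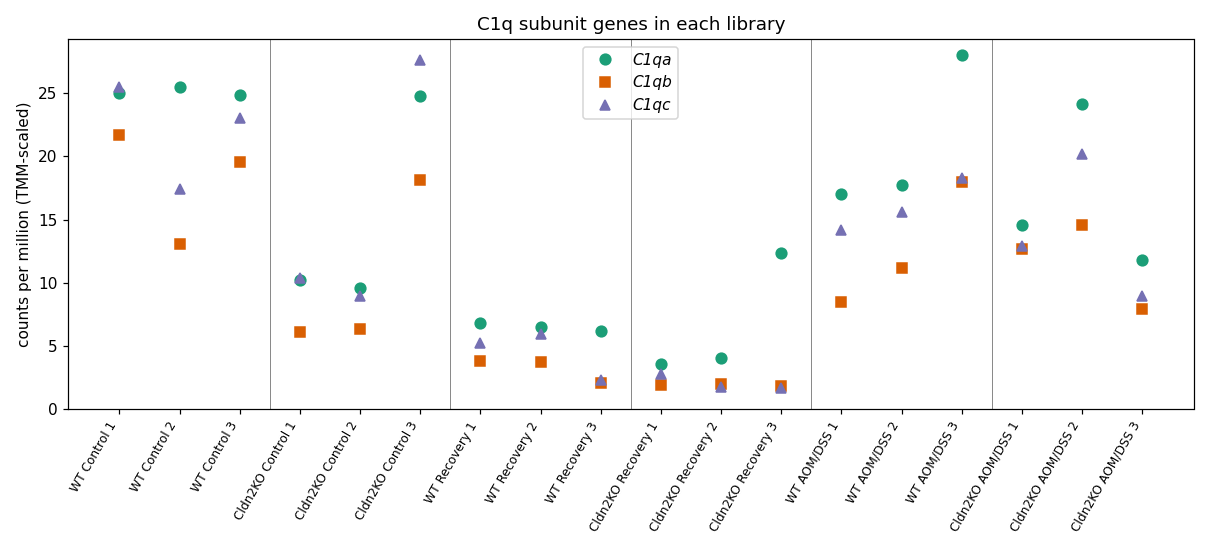
Level in CPM of *C1qa*, *C1qb* and *C1qc* in each of the 18 libraries, which are separated by group with vertical lines. *C1qa* stands at 12.4 CPM in *Cldn2*KO recovery replicate 3 while *C1qb* and *C1qc* stand below 1.80 CPM there, and *Cldn2*KO control replicate 3 reaches the level of the WT controls.

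*Cd68*, a glycoprotein of macrophage lysosomes, showed one of the smallest differences. It was at 4.52, 3.21 and 2.47 CPM in WT controls and at 2.02, 2.22 and 3.50 CPM in *Cldn2*KO controls. Recovery libraries were at 1.79, 1.94 and 1.06 CPM in WT and at 0.857, 1.35 and 1.43 CPM in *Cldn2*KO mice. They lay below all controls of their genotype, but with log2 fold changes of −1.09 ± 0.42 in both, *Cd68* missed the threshold (edgeR adjusted p = 0.0714 in WT and 0.0839 in *Cldn2*KO). DESeq2 and limma-voom called *Cd68* in WT mice (adjusted p = 0.0452 and 0.00775, within a range of 0.00775 to 0.279 over 15 alternatives), and no alternative called it in *Cldn2*KO mice (adjusted p of 0.0534 to 0.653).

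*Lyz2* encodes lysozyme of macrophages and other myeloid cells. It was at 108, 151 and 185 CPM in WT controls and at 76.6, 56.3 and 270.4 CPM in *Cldn2*KO controls. After recovery it was at 32.2, 45.0 and 18.2 CPM in WT and at 10.9, 13.2 and 15.2 CPM in *Cldn2*KO libraries. This was the largest fall of a member in *Cldn2*KO mice, to 0.0974 of the control level (log2 −3.36 ± 0.53, edgeR adjusted p = 0.000935), against −2.22 ± 0.50 (adjusted p = 0.00727) in WT mice. Control replicate 3 of *Cldn2*KO mice was the highest library of all 18 for this gene, and without it the *Cldn2*KO estimate was −2.33.

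*Mrc1*, the mannose receptor CD206 of tissue macrophages, was at 17.9, 8.12 and 16.8 CPM in WT controls and at 14.2, 13.04 and 17.7 CPM in *Cldn2*KO controls. Recovery levels were 5.17, 3.08 and 4.32 CPM in WT and 3.91, 2.69 and 2.31 CPM in *Cldn2*KO mice. *Mrc1* fell in both genotypes without overlap, by log2 −1.76 ± 0.34 (edgeR adjusted p = 0.00281) and −2.33 ± 0.34 (adjusted p = 0.000623).

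*Cd163*, the scavenger receptor for hemoglobin bound to haptoglobin, was rare. It was at 1.18, 2.03 and 0.768 CPM in WT controls and at 1.77, 1.61 and 2.96 CPM in *Cldn2*KO controls. In recovery it was at 0.448, 0.789 and 0.710 CPM in WT, where 1 recovery library overlapped the lowest control, and at 0.214, 0.510 and 0.394 CPM in *Cldn2*KO mice, where none did. *Cd163* fell in *Cldn2*KO mice (log2 −2.47 ± 0.56, edgeR adjusted p = 0.00668), and the WT estimate was −1.04 ± 0.54 (adjusted p = 0.183), or −0.64 without WT control replicate 2. The recovery values rest on 4 to 12 reads per library.

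**Figure D3:**
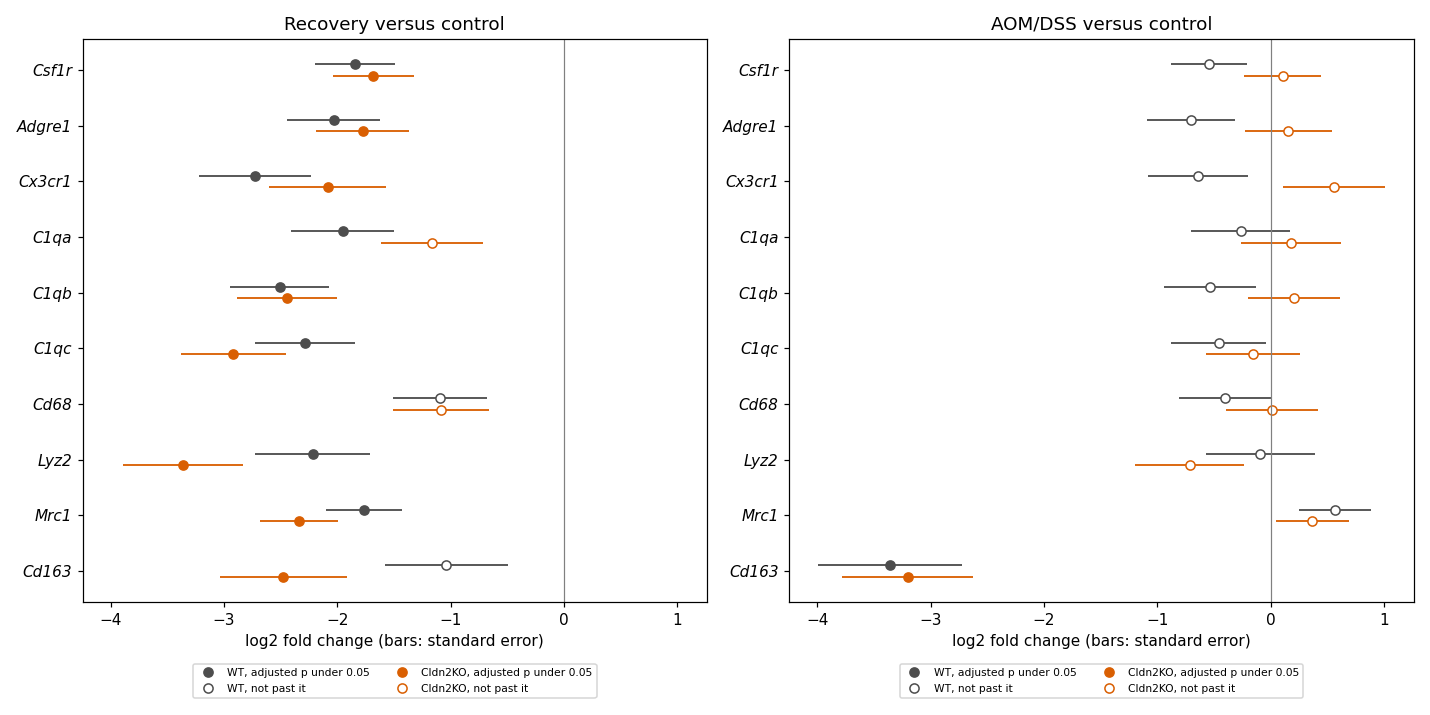
Log2 fold changes with standard errors for the 10 macrophage genes in recovery versus control and in AOM/DSS versus control, for WT (grey) and *Cldn2*KO mice (orange). Filled circles have an edgeR adjusted p under 0.05, which 8 genes per genotype reached in recovery and *Cd163* alone reached in AOM/DSS.

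The recovery difference was set against the absence of *Hoxb13* in the recovery libraries. WT control replicate 2, which also lacked *Hoxb13*, exceeded each of the 6 recovery libraries for all 10 genes, by 2.27 times (*Mrc1*) to 7.88 times (*Cx3cr1*) the mean of the 6. With presence of *Hoxb13* as a covariate, the WT comparison rested on that 1 control against the 3 recovery libraries, and edgeR called 6 of 10 members lower there (8.72% of all genes called). That fit assumes that the lone control varies like the libraries of the other groups, so the count is no replicated test. It left *Mrc1* (log2 −0.94, adjusted p = 0.130) and *C1qa* (−1.97, adjusted p = 0.0502) short of the threshold. Each of these adjusted p-values was the highest over the 15 alternatives of its gene, the lowest being 6.28e-06 for *Mrc1* and 5.04e-05 for *C1qa*. In *Cldn2*KO mice 0 of 10 were called under that covariate (0.785% of all genes), with estimates of −3.52 to −0.96, a lowest edgeR adjusted p of 0.0774 and 8 members under an unadjusted p of 0.05. With no covariate DESeq2 called 9 of 10 in each genotype, where it called 27.1% of all genes in WT and 23.9% in *Cldn2*KO mice. Limma-voom also called 9 of 10 in each, with 48% and 34% of all genes. Leaving out any library of the compared groups gave 8 in WT and 8 or 9 in *Cldn2*KO mice. With presence of *Xist* as a covariate edgeR called 8 of 10 in each genotype, with 2359 of 16937 genes in WT and 1887 in *Cldn2*KO mice.

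Genes of other cell types moved in the same libraries. The summed level of 10 smooth muscle genes was 4162 to 6194 CPM in WT controls and 8386 to 10803 CPM in *Cldn2*KO controls, and 854 to 2264 and 974 to 1645 CPM in the recovery groups, with 7 of 10 lower in WT and 10 of 10 lower in *Cldn2*KO mice. *Synm*, which encodes the intermediate filament protein synemin, fell by log2 −2.59 ± 0.50 and −3.71 ± 0.52. Of 5 fibroblast genes 2 fell in each genotype, the type I collagen genes *Col1a1* and *Col1a2*. Of 12 T and NK cell genes 5 rose in *Cldn2*KO recovery, among them granzyme genes *Gzma* (log2 5.71 ± 1.46) and *Gzmb* (4.24 ± 1.02), and their summed level was 3.00 to 15.01 CPM in *Cldn2*KO controls and 31.2 to 45.0 CPM in *Cldn2*KO recovery. In WT recovery 8 of the 12 estimates were positive (median log2 0.28) and 1 gene, *Cd4*, fell, with a sum of 65.6 to 195 CPM against 15.4, 165 and 22.7 CPM in the controls, where replicate 2 stood apart. The interaction with genotype was called by edgeR for 0 of the 12, with 5 under an unadjusted p of 0.05. All 8 B and plasma cell genes had negative estimates in recovery in both genotypes, with 5 lower in WT (median of the 8 log2 −3.15) and 3 lower in *Cldn2*KO mice (median −3.02), among them *Mzb1*, a plasma cell gene (−3.03 ± 0.75 and −3.20 ± 0.87). Their summed level was 1540 to 1707 CPM in WT controls and 184 to 297 CPM in WT recovery. In *Cldn2*KO mice it was 22.2 to 272 CPM in controls and 42.5 to 43.9 CPM in recovery, so these groups overlapped. Of 6 neutrophil genes 3 rose in *Cldn2*KO recovery, among them *S100a8* (6.86 ± 2.25) and *S100a9* (7.02 ± 1.90), and edgeR called 0 of 6 in WT recovery, with 2 under an unadjusted p of 0.05. *Ly6g*, the most abundant gene of that list in *Cldn2*KO controls, went the other way, from 343 to 529 CPM there to 14.7 to 63.7 CPM in *Cldn2*KO recovery (log2 −3.54 ± 1.24, edgeR adjusted p = 0.0594). The summed level of the list mostly follows *Ly6g* and moved from 343 to 529 CPM to 18.2 to 88.0 CPM. WT control replicate 2, which lacked *Hoxb13*, held *Ly6g* at only 0.589 CPM, while WT control replicates 1 and 3 held 517 and 464 CPM. In WT recovery, also without *Hoxb13*, *Ly6g* was at 49.5, 6.89 and 80.5 CPM. The lower sum is therefore not read as a change in neutrophils, and whether *Ly6g* varies with *Hoxb13* was not tested. For the neutrophil and for the B and plasma cell genes edgeR called no interaction with genotype in recovery, and 0 genes of either list had an unadjusted p under 0.05. The part of tissue composition in the macrophage gene levels was not tested.

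**Figure D4:**
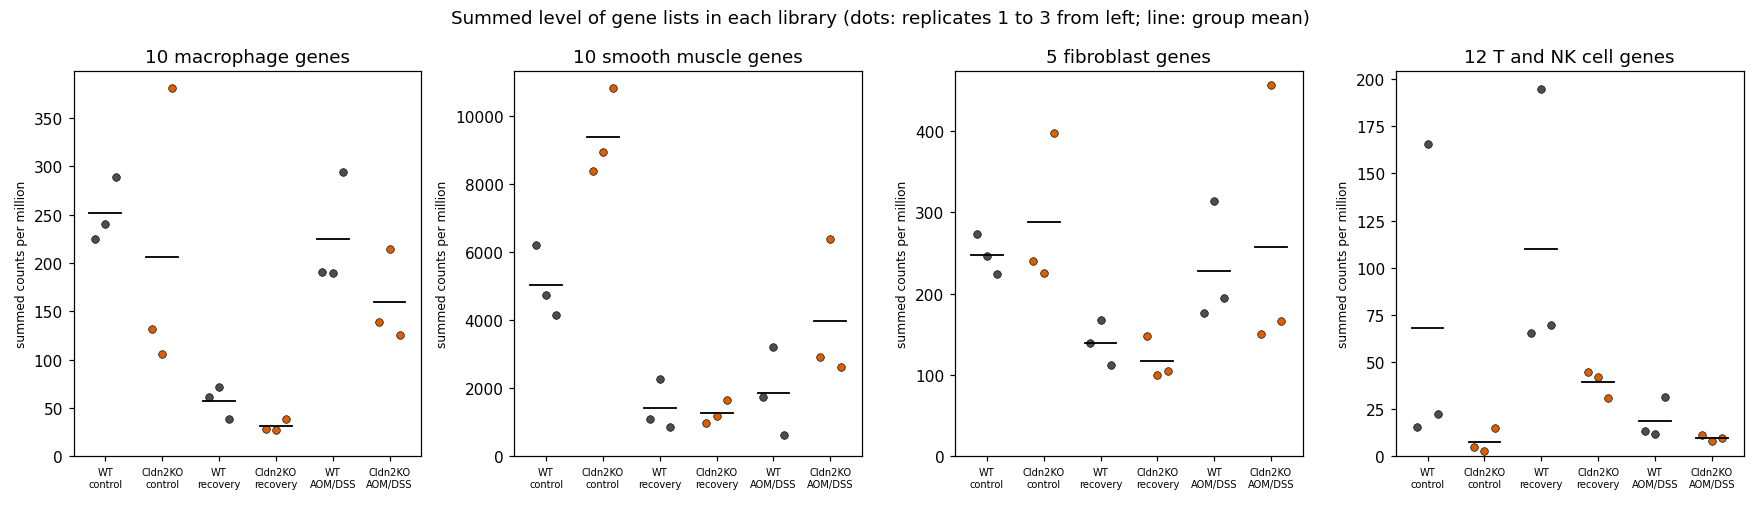
Summed level in CPM of the 10 macrophage genes, 10 smooth muscle genes, 5 fibroblast genes and 12 T and NK cell genes in each library, with dots for replicates 1 to 3 and a line for the group mean. Macrophage and smooth muscle sums are both low in recovery. In AOM/DSS the macrophage sum of 126 to 294 CPM lies within the control range of 106 to 381 CPM, whose upper end is *Cldn2*KO control replicate 3. The macrophage sum mostly follows *Lyz2*, which is uncertain in AOM/DSS. The smooth muscle sums in AOM/DSS lie below the controls of the same genotype.

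The ligands of the member receptors followed in part. *Il34*, a ligand of the CSF1 receptor, fell in recovery in WT (log2 −2.34 ± 0.44, edgeR adjusted p = 0.00249) and *Cldn2*KO mice (−2.55 ± 0.43, adjusted p = 0.00109). *Il34* was at 2.68 to 10.8 CPM in WT and 13.5 to 15.1 CPM in *Cldn2*KO controls, and at 1.47 to 1.83 and 1.55 to 2.95 CPM in recovery. *Cx3cl1*, the ligand of CX3CR1, fell in WT mice (−0.80 ± 0.23, adjusted p = 0.0217) and was at −0.39 ± 0.23 (adjusted p = 0.257) in *Cldn2*KO mice. *Csf1* and *Hp*, the haptoglobin gene, were not called in either genotype.

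Among 23 other macrophage genes tested of 28 listed, 7 fell and 1 rose in recovery in each genotype. Their median log2 fold change was −1.06 in WT and −0.73 in *Cldn2*KO mice. *Pf4*, a chemokine gene of platelets and tissue macrophages, fell by −2.48 ± 0.46 and −3.44 ± 0.48, and the scavenger receptor gene *Msr1* by −2.43 ± 0.36 and −1.87 ± 0.35. *Stab1*, a scavenger receptor gene, fell in WT (−1.54 ± 0.42) and *Folr2*, a folate receptor gene, fell in *Cldn2*KO mice (−1.51 ± 0.46). *Lgmn*, encoding a lysosomal protease made by many cell types, rose by 1.45 ± 0.24 and 1.62 ± 0.25.

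Of 16 monocyte and inflammatory macrophage genes tested, 6 fell and none rose in WT recovery, while 5 fell and 3 rose in *Cldn2*KO recovery. *Fn1*, which encodes fibronectin, fell in both (log2 −2.44 ± 0.43 and −3.14 ± 0.44). The monocyte chemokine gene *Ccl7* (−3.41 ± 0.84), the monocyte marker *Ly6c2* (−2.91 ± 0.63) and *Nos2* (−2.76 ± 0.95), the inducible nitric oxide synthase that epithelium also makes, fell in WT. In *Cldn2*KO mice *Retnla* fell (−4.62 ± 1.17), while *Saa3* (5.41 ± 1.42), an acute phase gene, and *Tnf* (2.95 ± 0.99) rose. Whether the genotypes differed was tested by the interaction, which edgeR called for 0 of the 16, with 3 under an unadjusted p of 0.05 (edgeR adjusted p = 0.0818 for *Nos2* and 0.175 for *Saa3*).

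Partners of C1q in the complement cascade fell as well, 5 of 9 tested in WT and 3 of 9 in *Cldn2*KO mice. *C1ra*, a protease of the C1 complex, fell by log2 −1.96 ± 0.39 in WT and −1.97 ± 0.39 in *Cldn2*KO mice. *C3ar1*, a receptor for a C3 fragment, fell by −2.55 ± 0.41 and −1.78 ± 0.41, and *C4b* (−1.48 ± 0.47) fell in WT. *C1s1* fell in *Cldn2*KO mice (−1.53 ± 0.32), where the central component *C3* rose (1.99 ± 0.58, edgeR adjusted p = 0.0259).

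In AOM/DSS colon *Cd163* was lower than in controls in both genotypes, and edgeR called none of the other 9 macrophage genes. Limma-voom also called *C1qb* lower in WT mice (log2 −0.88), where it called 15.2% of all genes. *Cd163* was at 0.145, 0.219 and 0.00 CPM in WT and at 0.238, 0.260 and 0.176 CPM in *Cldn2*KO libraries, from 0 to 8 reads per library against 14 to 55 in controls. All 6 lay below all 6 controls. *Cd163* was the 1 of 10 members that fell in WT (log2 −3.36 ± 0.64, edgeR adjusted p = 0.0105), where 10.4% of all genes changed and 6.58% fell. It was also the 1 of 10 in *Cldn2*KO mice (−3.20 ± 0.58, adjusted p = 0.0384), where 0.195% changed and 0.118% fell. The WT call was lost in a fit with only those 2 groups (adjusted p = 0.166, with a range of 0.000104 to 0.166 over 15 alternatives), and over these alternatives the estimate ran from −4.07, without WT AOM/DSS replicate 2, to −2.44 in limma-voom. The *Cldn2*KO call was lost without control replicate 1 (adjusted p = 0.103), control replicate 2 (0.215), control replicate 3 (0.128), AOM/DSS replicate 1 (0.159) or AOM/DSS replicate 3 (0.316), and with *Xist* as a covariate (0.137). Over its 15 alternatives the adjusted p ran from 2.76e-05 to 0.316 and the estimate from −3.60 to −2.85.

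The estimates of the remaining members ran in both directions. *Mrc1* was at 13.3, 20.4 and 29.8 CPM in WT and at 18.1, 17.98 and 22.0 CPM in *Cldn2*KO AOM/DSS libraries, the latter all above their controls, with log2 fold changes of 0.57 ± 0.32 (edgeR adjusted p = 0.249) and 0.37 ± 0.32 (adjusted p = 0.613). *Adgre1* was at 3.78, 2.80 and 2.88 CPM in WT, all below the WT controls (−0.70 ± 0.38, edgeR adjusted p = 0.234). In *Cldn2*KO libraries it was at 2.95, 5.29 and 3.87 CPM (0.16 ± 0.38, or −0.059 to 0.36 with 1 library left out). *Csf1r* was at 5.37, 6.96 and 10.7 CPM in WT and at 5.56, 9.35 and 5.95 CPM in *Cldn2*KO libraries, overlapping the controls in both. None of these 3 genes passed in either genotype by edgeR, DESeq2 or limma-voom. Without WT AOM/DSS replicate 3, the highest of its group for *Mrc1* and *Csf1r*, the WT estimate of *Mrc1* was 0.24.

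*Cx3cr1* was at 1.45, 2.41 and 1.99 CPM in WT and at 1.14, 2.69 and 1.55 CPM in *Cldn2*KO AOM/DSS libraries. *Cd68* was at 1.31, 2.58 and 3.83 CPM and at 3.28, 2.79 and 1.76 CPM. Both overlapped the controls. *C1qa* was at 16.99, 17.7 and 28 CPM in WT and at 14.55, 24.1 and 11.8 CPM in *Cldn2*KO libraries. *C1qb* was at 8.47, 11.2 and 17.97 CPM in WT and at 12.7, 14.6 and 7.89 CPM in *Cldn2*KO libraries. *C1qc* was at 14.1, 15.6 and 18.3 CPM and at 12.9, 20.2 and 8.95 CPM. *C1qb* and *C1qc* lay above all recovery libraries of their genotype in both, while *C1qa* did so in WT and overlapped *Cldn2*KO recovery replicate 3 in *Cldn2*KO mice. The log2 fold changes of the 3 chains against controls were −0.53 (*C1qb*), −0.46 (*C1qc*) and −0.26 (*C1qa*) in WT and 0.20, −0.16 and 0.18 in *Cldn2*KO mice. None passed in edgeR or DESeq2, and limma-voom called *C1qb* in WT mice (adjusted p = 0.039, the lowest of a range to 0.685 over 15 alternatives). The *Cldn2*KO estimates moved with single libraries. Without control replicate 3 they were 0.95 for *C1qb*, 0.57 for *C1qc* and 0.80 for *C1qa*, and without AOM/DSS replicate 2 that of *C1qa* was −0.15. In WT mice the estimate of *C1qb* was −0.88 without AOM/DSS replicate 3.

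*Lyz2* in AOM/DSS is less certain. It was at 126, 109 and 181 CPM in WT and at 67.2, 117 and 61.9 CPM in *Cldn2*KO libraries. Its near-identical paralog *Lyz1*, the lysozyme of Paneth cells, was at 0.118 to 10.8 CPM in the control and recovery libraries but at 21.1, 148 and 1088 CPM in WT and 488, 8.60 and 362 CPM in *Cldn2*KO AOM/DSS libraries. Reads shared by the 2 genes could be split between them there, and the log2 fold changes of *Lyz2*, −0.09 ± 0.48 in WT and −0.71 ± 0.48 in *Cldn2*KO mice, missed the threshold (edgeR adjusted p = 0.925 and 0.502). The *Cldn2*KO estimate turned to 0.33 without control replicate 3 and was −1.08 without control replicate 2, and the WT estimate was 0.10 without control replicate 3 and 0.070 without AOM/DSS replicate 2. No direction of *Lyz2* in AOM/DSS is therefore given.

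Other macrophage markers were tested in AOM/DSS as well. In WT mice 2 of 23 fell, near the share of all genes that fell (6.58%). These were *Lyve1* (log2 −1.46 ± 0.39, edgeR adjusted p = 0.0326), a marker of perivascular macrophages and of lymphatic vessels, and the transcription factor gene *Maf* (−1.54 ± 0.39, adjusted p = 0.0284). In *Cldn2*KO mice edgeR called 0 of 23, with 5 under an unadjusted p of 0.05. Of 16 monocyte and inflammatory genes 2 rose in WT, among them the interleukin 1 beta gene *Il1b* (3.17 ± 0.96). In *Cldn2*KO mice edgeR called 0 of 16, with 6 under an unadjusted p of 0.05. Of 6 neutrophil genes 5 rose in WT, among them *S100a8* (6.65 ± 1.68) and *S100a9* (8.61 ± 1.68), with WT AOM/DSS replicate 3 at 174 and 135 CPM and the other 5 AOM/DSS libraries at 1.07 to 8.77 CPM. In *Cldn2*KO mice edgeR called 0 of 6, with 5 under an unadjusted p of 0.05 and a median log2 fold change of 5.36, so a rise in WT alone is not shown. All 10 smooth muscle genes had negative estimates in both genotypes. In WT 5 were lower by the test (median log2 −1.44), where 6.58% of all genes fell. In *Cldn2*KO mice 0 were called by edgeR and 9 were under an unadjusted p of 0.05 (median −1.17).

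Genotype was compared within each treatment. Between untreated *Cldn2*KO and WT colon none of the 10 genes passed the test (0 of 10 called by edgeR and by DESeq2, 2 with an unadjusted p under 0.05, and 1.17% of all genes called by edgeR). Limma-voom with sample weights called 5 lower and *Cd163* higher, and it called 15.1% of all genes, against 4.06% by DESeq2. *Csf1r*, *Cx3cr1* and *C1qa* were lower in all 3 *Cldn2*KO controls than in any WT control, a separation found in 10.7% of all genes. For *C1qa* the highest *Cldn2*KO and the lowest WT control were nearly equal, at 24.81 and 24.84 CPM. *Cx3cr1* had the largest difference (log2 −1.32 ± 0.45, edgeR adjusted p = 0.195), and *Cd163* was at 0.68 ± 0.51 (adjusted p = 0.640). With 1 library left out the estimate of *Cd163* ran from 0.35 to 1.08. *Cldn2*KO control replicate 3 stood above its group, with a summed level of the 10 genes of 381 CPM against 132 and 106 CPM in replicates 1 and 2, while WT controls were at 225 to 289 CPM. Without that library 0 of 10 were called by edgeR, with 6 in place of 2 under an unadjusted p of 0.05, a lowest adjusted p of 0.0514 and a median log2 fold change of −1.18 in place of −0.50.

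After recovery 0 of 10 genes were called between genotypes by edgeR, DESeq2 or limma-voom, with 2 under an unadjusted p of 0.05 in edgeR. The share of all genes called was 0.974% by edgeR, 7.98% by DESeq2 and 11.2% by limma-voom. *C1qb*, *Csf1r* and *Lyz2* were lower in all 3 *Cldn2*KO than in any WT library, which 11.7% of all genes also were. The largest estimate was that of *Lyz2*, −1.28 ± 0.50 (edgeR adjusted p = 0.166), followed by *C1qc* at −1.12 ± 0.45 (adjusted p = 0.178). In AOM/DSS 0 of 10 were called by any of the 3 tools, none had an unadjusted p under 0.05, and the share of all genes called was 0.0059% by edgeR, 0.0236% by DESeq2 and 0.0059% by limma-voom. Estimates there ran from −0.76 (*Lyz2*) to 0.84 (*Cd163*), the latter 1.55 without WT AOM/DSS replicate 2 and 0.29 without WT AOM/DSS replicate 3.

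Averaged over the 3 treatments, 9 of 10 estimates were negative, with a median of −0.43 against −0.000167 over all genes. None passed the threshold in edgeR or DESeq2 (lowest edgeR adjusted p = 0.185, *Csf1r*, −0.52 ± 0.20), 5 had an unadjusted p under 0.05 in edgeR, and edgeR called 1.5% of all genes. Limma-voom called 3 members and 11.9% of all genes, and DESeq2 5.33% of all genes. Without *Cldn2*KO control replicate 3 the average passed for *Lyz2* (−1.08, adjusted p = 0.00984), *C1qb* (−0.82, adjusted p = 0.0394) and *C1qc* (−0.85, adjusted p = 0.0418), with 2.59% of all genes called. The result for genotype therefore depends on that library, and these adjusted p-values were the lowest of the 3 genes over 26 alternatives, while the highest were 0.385 for *Lyz2*, 0.409 for *C1qb* and 0.398 for *C1qc*.

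**Figure D5:**
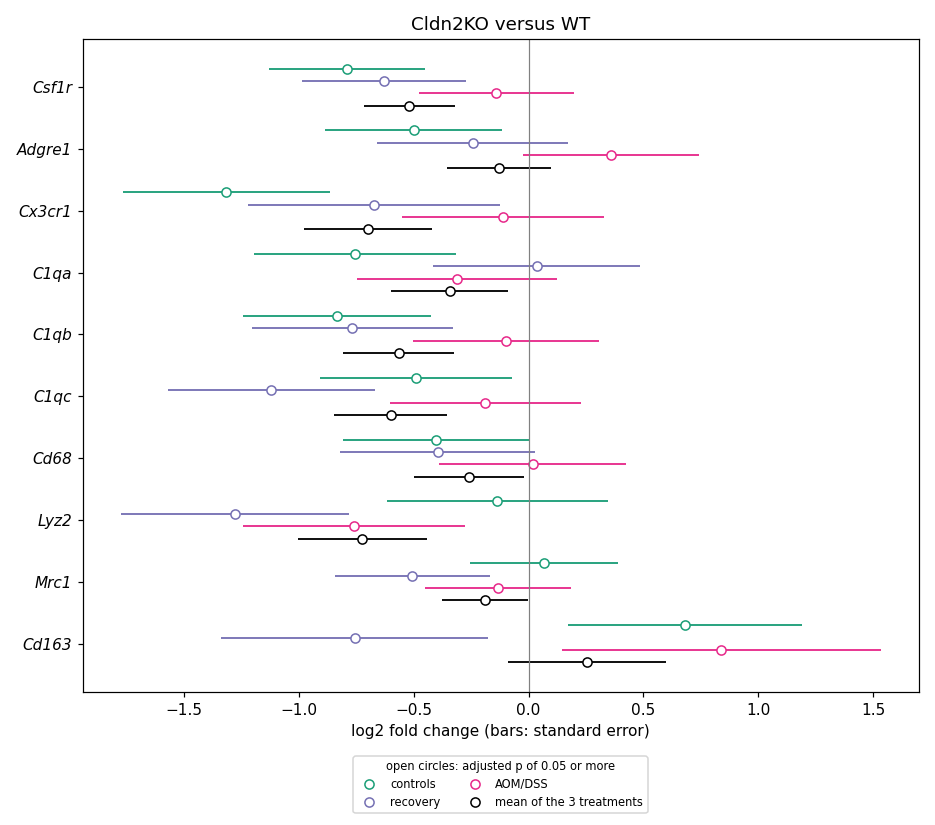
Log2 fold changes with standard errors of *Cldn2*KO versus WT for the 10 macrophage genes in controls, in recovery, in AOM/DSS and averaged over the 3 treatments. All circles are open because no gene reached an edgeR adjusted p under 0.05, and 9 of the 10 averages (black) lie left of 0.

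Whether the response itself differed between genotypes was tested as an interaction. For recovery 0 of 10 members passed in edgeR, DESeq2 and limma-voom, none had an unadjusted p under 0.05 in edgeR, and 0.13%, 5.18% and 10.4% of all genes passed in these tools. The interaction estimates ran from −1.44 for *Cd163* (edgeR adjusted p = 0.335) to 0.79 for *C1qa*. The latter was −0.019 without *Cldn2*KO recovery replicate 3 and 1.36 without *Cldn2*KO control replicate 3, and without that control the estimate of *Lyz2* was −0.14 in place of −1.14. For AOM/DSS it was 0 of 10 in each tool, none with an unadjusted p under 0.05, with 0.0118%, 0.514% and 1.77% of all genes, and estimates ran from −0.62 for *Lyz2* to 1.203 for *Cx3cr1* (adjusted p = 0.615). Without *Cldn2*KO control replicate 3 the estimate of *Lyz2* was 0.40 and that of *C1qb* 1.46 in place of 0.74. The recovery call of *Cd163* in *Cldn2*KO mice alone is thus not shown to be a difference between genotypes.

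Over the 18 libraries the log2 CPM of each member was compared with the mean of the other 9. Pearson's r was 0.97 for *C1qb* and *C1qc*, 0.83 to 0.95 for the other members but *Cd163*, and 0.083 for *Cd163*. Within groups, after each group's mean was taken out, it was 0.86 for *C1qb* and 0.56 to 0.83 for *C1qc*, *Lyz2*, *Csf1r*, *C1qa* and *Cd68*. It was lower for *Adgre1* (0.44), *Cx3cr1* (0.37) and *Mrc1* (0.25), and −0.076 for *Cd163*. The points share libraries, depth and the 6 groups, and these values are a description. The 5 genes outside the list whose log2 CPM was most like the mean of the members, among 14332 genes with a mean of at least 1 CPM, were *Fcgr3* (r = 0.96), *Rgs10* (0.96), *Ccr2* (0.96), *Lair1* (0.95) and *Ppic* (0.94). *Fcgr3* encodes an Fc receptor of myeloid cells and *Lair1* an inhibitory receptor for collagen. *Ccr2*, the monocyte chemokine receptor named above, was at 5.37 to 9.83 CPM in WT and 3.50 to 6.89 CPM in *Cldn2*KO controls, and at 0.769 to 2.12 and 0.650 to 1.03 CPM in recovery. The gene was named for its likeness to the members, so these levels are a description with no test.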

How the data were processed

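Total RNA of mouse colon was isolated with a Quick-RNA kit and sequenced on a NovaSeq6000. The authors deposited raw read counts per gene, 2 lanes for each of 18 libraries, made with featureCounts of Subread on GRCm38. The submitters' processing notes name HISAT2 and the study's methods name TopHat2, with no versions, and strand use in counting is not stated. The counts of the 2 lanes of a library were summed (lanes differed by little more than counting error, with a ratio of chi-square to its degrees of freedom from 1.08 to 1.18), and no replicate pair agreed within sampling noise. Of 47729 gene identifiers, 47310 had a symbol in GENCODE M21, and library totals were 17643058 to 27390344 reads, with 0 columns left unmapped.

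Counts were tested with edgeR 4.0.16 (filterByExpr, TMM, robust quasi-likelihood, all 18 libraries, 1 mean per group, common dispersion 0.0993), after a test on simulated data, with Benjamini-Hochberg adjustment over 16937 genes and a threshold of 0.05. The SE of an estimate was approximated as the absolute log2 fold change divided by the square root of its edgeR F statistic. Alternatives were DESeq2 1.42.0, limma-voom (limma 3.58.1), other scalings and filters, *Hoxb13* or *Xist* covariates (10 CPM), fits of only the groups compared and leaving out each library. Replicate numbers come from the titles for controls and from accession order for the treated groups. The 10 genes and all other gene lists were chosen with earlier results of these data known. All 10 members are named. Of each other list at most 4 genes are named, those called with the largest change and a mean of at least 1 CPM, or the most abundant where none is called. Values of some listed genes are not reported here. The 5 most similar genes were taken by Pearson's r over 18 libraries. Lists not described in the report (dendritic, mast, epithelial, Paneth, enteric neuron and glia, endothelial) are summarized in the closing section.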

Additional observations from a re-analysis of the deposited data

How the results depend on the processing

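Over 1738 alternative estimates of the 10 genes in 10 comparisons, no called estimate changed sign. In 89 cases an estimate that was not called under either setting had the other sign, 17 calls were lost and 18 were gained. With *Hoxb13* as a covariate 0 of 10 members were called in *Cldn2*KO recovery, a fit in which the covariate is set by 1 WT control library. Limma-voom with sample weights called 6 members for genotype in controls, 3 for the average genotype difference and 2 for AOM/DSS in WT mice. The fit of only the groups compared gave 0 calls for AOM/DSS in WT, and the *Xist* covariate gave 0 for AOM/DSS in *Cldn2*KO mice. Leaving out single libraries gave between 0 and 1 call for AOM/DSS in *Cldn2*KO mice and between 0 and 3 for the average genotype difference. The cause was not tested. Counts over all genes moved by more than 1.5 times in several fits, as for AOM/DSS in WT mice, with 1761 genes called by edgeR over all libraries, 7 in the fit of those 2 groups and 3033 by DESeq2, and for recovery in *Cldn2*KO mice, with 3291 genes called and 133 under the *Hoxb13* covariate. For genotype, edgeR, DESeq2 and limma-voom called 199, 688 and 2552 genes in controls, 165, 1351 and 1902 in recovery, and 254, 902 and 2015 on average.

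Only the control titles carry shared numbers. With the replicate block there, 0 of 10 members and 179 genes were called for genotype, against 0 and 199 without it. Same-numbered controls correlated at 0.157, 0.0023 and 0.079 in their deviations from the group means, so the samples share only a number, and replicate 2 of neither genotype correlated best with its own number.

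Depth limits *Cd163*, with 0 to 12 reads per library in recovery and AOM/DSS, and *Cx3cr1*, with 3 to 13 reads in recovery. The groups of 3 also limit what the genotype comparison can show, with a standard error of 0.32 to 0.51 on the log2 scale in controls. Recovery and absence of *Hoxb13* cannot be told apart in *Cldn2*KO mice.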

Other observations

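Genes of other cell types were measured in the same colons. B and plasma cell genes were lower in untreated *Cldn2*KO than in WT colon for 2 of 8, the IgA heavy chain gene *Igha* (log2 −3.91 ± 0.61, edgeR adjusted p = 0.00582) and *Jchain* (−3.81 ± 0.56, adjusted p = 0.0038), which joins antibody subunits. Their summed level was 1540 to 1707 CPM in WT and 22.2 to 272 CPM in *Cldn2*KO controls. T and NK cell genes were lower in untreated *Cldn2*KO colon for 4 of 12, among them *Cd3e* (−4.28 ± 0.99) and *Cd8a* (−3.89 ± 0.86), with a summed level of 3.00 to 15.01 CPM against 15.4, 165 and 22.7 CPM in WT controls. The value of 165 CPM is that of WT control replicate 2, the control that lacked *Hoxb13*, so that library carries the WT mean of the sum. The complement gene *C2* was lower in untreated *Cldn2*KO colon (−2.15 ± 0.42, edgeR adjusted p = 0.0208) and on average over the treatments (−1.39 ± 0.24, adjusted p = 0.00638). Of 16 monocyte and inflammatory genes 2 were lower in untreated *Cldn2*KO colon, where edgeR called 1.17% of all genes. In *Cldn2*KO recovery 1 of 8 B and plasma cell genes was lower (0.974% of all genes called). Averaged over the treatments 3 of these 8 and 3 of 12 T and NK cell genes were lower (1.5% of all genes called).

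In recovery 4 of 9 dendritic cell genes fell in WT and 1 of 9 in *Cldn2*KO mice, where 12.2% and 10.0% of all genes fell. *Itgax*, the integrin chain CD11c, was at −1.68 ± 0.46 in WT. Of 6 mast cell genes tested, 1 rose and 1 fell in each genotype, and 1 of 6 estimates was positive in WT against 5 of 6 in *Cldn2*KO mice. *Kit*, which interstitial cells of Cajal and mast cells express, was the one that rose (1.02 ± 0.34 and 1.47 ± 0.35). *Cma1*, a mast cell chymase gene, was the one that fell (edgeR adjusted p = 0.00511 and 0.00291), from 0 to 10.7 CPM in WT and 6.44 to 6.51 CPM in *Cldn2*KO controls to 0 to 0.122 CPM and to 0 in every library, so that the WT groups overlapped. The difference between genotypes in the response to recovery was called by edgeR for 0 of 6 mast cell genes, with 3 under an unadjusted p of 0.05, and for 0 of 9 dendritic cell genes, with 1 under that p. Of 6 endothelial genes 3 fell in WT recovery, among them *Pecam1* (−1.55 ± 0.41), and 0 of 6 were called by edgeR in *Cldn2*KO recovery, with 1 under an unadjusted p of 0.05. Their interaction with genotype was called for 0 of 6, with 0 under that p. Of 9 enteric neuron and glia genes 0 were called by edgeR in recovery in either genotype, with 1 in each under an unadjusted p of 0.05, and 5 fell in WT AOM/DSS, among them the neuronal tubulin gene *Tubb3* (−2.19 ± 0.36). In *Cldn2*KO AOM/DSS edgeR called 0 of the 9, with 2 under an unadjusted p of 0.05 and all 9 estimates negative. Of 10 epithelial genes 2 rose and 4 fell in WT recovery, with the mucin gene *Muc2* at 2.21 ± 0.32 and the transporter gene *Slc26a3* at −1.78 ± 0.60. In *Cldn2*KO recovery 2 rose and 1 fell, with *Muc2* at 1.82 ± 0.32 and *Slc26a3* at −1.98 ± 0.61. In WT AOM/DSS 4 of the 10 epithelial genes fell and 0 rose. In *Cldn2*KO AOM/DSS edgeR called 0 of the 10, with 1 under an unadjusted p of 0.05. Of 8 Paneth cell genes 4 rose in WT AOM/DSS, among them *Lyz1* (6.01 ± 1.45) and *Itln1* (5.49 ± 1.38). In *Cldn2*KO AOM/DSS edgeR called 0 of the 8, but 7 had an unadjusted p under 0.05 and all 8 estimates were positive (*Lyz1* 5.94 ± 1.45, *Itln1* 4.87 ± 1.36), so a rise in WT alone is not shown.

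*Ly6g*, listed as a neutrophil gene, was at 343 to 529 CPM in *Cldn2*KO controls and at 517, 0.589 and 464 CPM in WT controls. The 0.589 CPM belongs to WT control replicate 2, which lacked *Hoxb13*. *S100a8* and *S100a9* were at 1.48 CPM or less in all 6 control libraries. *Timd4*, a marker of long-lived macrophages, was at 0.00 to 0.59 CPM in all 18 libraries, and *Spi1* at 0.16 to 3.07 CPM.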
